A study of Mus musculus with 3 samples.

Results

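The data describe 9 genes of the class I phosphoinositide 3-kinase (PI3 kinase) pathway in mouse follicular regulatory T (Tfr) cells: 4 catalytic subunits (Pik3cd, Pik3ca, Pik3cb and Pik3cg), 2 regulatory subunits (Pik3r1 and Pik3r5), the membrane inhibitor Pik3ip1, and 2 phosphatases that oppose the pathway (Inpp5d and Phlpp1). They were taken as every probe set that the platform annotation gave to 1 of these symbols alone, which found 25 probe sets of 9 genes among 45037 probe sets and 18193 gene symbols. The genes were chosen with their levels on these same arrays already known, so differences between genotypes are described for them without a test. A probe set is a group of array features that reads 1 stretch of a transcript, and its intensity has an arbitrary unit.

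Follicular regulatory T cells carry the regulatory T cell factor Foxp3, home to B cell follicles and limit germinal centre responses. Spleens of C57BL/6 mice were taken on day 8 of a response to OVA, and lineage-negative cells were sorted on 5 surface proteins (CD4, CD44, GITR, CD25 and CXCR5). Wild-type (WT) mice gave 1 pool of 4 animals, and mice with CD4-Cre and floxed alleles of Rptor (Rptor-null) gave 2 pools of 8 animals, and each pool was read on 1 array. CD4-Cre is active in the T cell lineage as a whole and not in Tfr cells alone. All 3 pools came from immunized mice. Rptor encodes raptor, the scaffold of the kinase complex mTORC1. The comparison is between pools sorted as Tfr cells from WT mice and from mice with CD4-Cre and floxed Rptor. Loss of raptor itself was not measured here. There is no replicate error for WT, and a Rptor-null mean carries its SD (n = 2 pools).

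Class I PI3 kinases phosphorylate the membrane lipid PIP2 to PIP3, which recruits PDK1, AKT and Tec family kinases to the membrane. A catalytic p110 subunit is paired with a regulatory subunit: p110 alpha, beta and delta with p85-type subunits, and p110 gamma with p101 or p84, which respond to G protein-coupled receptors. In lymphocytes p110 delta acts downstream of the antigen receptor and of costimulation, and it is needed for regulatory and follicular helper T cells. The signal is ended by lipid phosphatases such as SHIP1 and by phosphatases that remove the activating phosphates of AKT. mTORC1 lies downstream of AKT and feeds back on inputs to PI3 kinase.

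Sequences before the annotated starts of Pik3cd and Pik3r1 are shown. Both genes have several such starts, up to 35392 bases apart for Pik3cd and 75587 for Pik3r1. Both also have several probe sets whose values are compared below. Whether each sequence acts as a promoter was not tested. Each sequence is the 250 bases before an annotated start on the minus strand, 5′ to 3′, from RefSeq on GRCm38.p6. The windows of Pik3cd lie at chr4:149698709-149698958, chr4:149676090-149676339 and chr4:149663317-149663566, from the most upstream start on. Those of Pik3r1 lie at chr13:101768218-101768467 and chr13:101692631-101692880. Capitals mark the GC box GGGCGG and the TATA box TATAAA on either strand.
Pik3cd start 1: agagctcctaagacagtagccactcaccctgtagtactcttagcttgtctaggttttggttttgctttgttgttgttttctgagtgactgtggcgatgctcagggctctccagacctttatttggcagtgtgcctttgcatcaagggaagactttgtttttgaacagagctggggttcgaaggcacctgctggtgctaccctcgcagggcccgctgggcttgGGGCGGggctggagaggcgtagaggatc
Pik3cd start 2: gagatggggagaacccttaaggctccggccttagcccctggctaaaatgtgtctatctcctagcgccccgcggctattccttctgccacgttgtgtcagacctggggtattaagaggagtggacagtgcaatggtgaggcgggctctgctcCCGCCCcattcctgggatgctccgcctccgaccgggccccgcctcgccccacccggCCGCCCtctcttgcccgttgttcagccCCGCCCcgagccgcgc
Pik3cd start 3: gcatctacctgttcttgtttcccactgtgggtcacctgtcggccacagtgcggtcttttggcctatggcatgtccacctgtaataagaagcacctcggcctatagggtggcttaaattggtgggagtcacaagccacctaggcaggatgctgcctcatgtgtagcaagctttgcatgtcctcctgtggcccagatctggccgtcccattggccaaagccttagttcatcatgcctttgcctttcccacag
Pik3r1 start 1: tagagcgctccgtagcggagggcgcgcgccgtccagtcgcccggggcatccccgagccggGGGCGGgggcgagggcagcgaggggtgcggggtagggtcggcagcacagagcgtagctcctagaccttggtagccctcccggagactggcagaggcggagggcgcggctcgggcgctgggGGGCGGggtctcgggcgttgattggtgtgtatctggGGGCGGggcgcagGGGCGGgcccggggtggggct
Pik3r1 start 2: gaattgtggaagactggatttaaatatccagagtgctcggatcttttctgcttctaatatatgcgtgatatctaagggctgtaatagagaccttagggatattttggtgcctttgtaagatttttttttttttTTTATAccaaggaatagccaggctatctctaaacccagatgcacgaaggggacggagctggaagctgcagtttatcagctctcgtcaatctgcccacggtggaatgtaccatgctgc

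The first and second windows of Pik3cd held the GC box and the third did not. The first window of Pik3r1 held the GC box, and the second held the TATA box in its place. Over the 13 windows of the 9 genes, 7 held the GC box, against 32.7% of all 32851 windows of this length, and 1 held the TATA box, against 12.4%. The forkhead motif GTAAACA, which FOXO factors can bind, was found in 1 of the 13 windows, the second of Pik3cg, and in 3.17% of all windows. Both strands were searched for all 3 motifs, no window of these genes held more than 1 of them, and a match describes the letters only. The platform annotation does not place a probe set on 1 start or another, so no probe set was assigned to a promoter.

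The arrays were alike in scale, with median intensities of 52.7 in WT and 54.9 and 54.8 in Rptor-null pools. On the log2 scale the Rptor-null arrays correlated at 0.992 with each other and at 0.976 and 0.977 with WT, across probe sets, which are not independent replicates. The targeted gene, Rptor, read 365 in the WT array against 353 and 412 on the brighter of its 2 probe sets past the filter. Both had a mean difference above WT. Their position relative to the deletion is not known, so they check nothing. Signal at the 3′ end of Gapdh over that at its 5′ end, a measure of RNA integrity, was 1.11 for the WT pool but 1.94 and 2.58 for the others, and the same ratio of beta-actin was 1.40 against 2.65 and 2.87. T and Tfr markers were detected, all of those measured being above the filter on low values. In WT, Cd3d read 12582 and Ikzf2 6050, while Cd4 read 696 and Foxp3 752. The filter does not tell cell types apart, since all measured macrophage, basophil, neutrophil and NK cell markers were above it too. Of 10 T cell and 10 Tfr markers, 6 and 5 passed the test as lower. Cd44 of the Tfr list was above WT on its brightest probe set (3540, 4383 and 4306). Summed intensities were lower in the Rptor-null arrays, with 48188 in WT and 32658 and 32133 over the T cell markers. Over the Tfr markers they were 26052, 18142 and 16226. The sums over 14 macrophage and monocyte markers moved the other way, from 35413 in WT to 50571 and 56212, with Lyz2 at 14972 and Csf1r at 7911 in WT, and 10 of the 14 passed the test as higher. Basophil and mast cell markers, 7 measured, summed to 1188, 1998 and 2344, and NK cell markers, 6 measured, to 6579, 8283 and 8677. Of the NK cell markers 3 passed as higher, while Ncr1 (398, 299 and 285) and Klrk1 (1091, 814 and 919) were below WT. None of the macrophage and monocyte, basophil and mast cell, or NK cell markers was at or below the filter. The 9 B cell markers summed to 1858, 1828 and 2138, with Fcer2a and Ebf1 below the filter. The 7 dendritic cell markers summed to 993, 948 and 1002, with Xcr1 below it. Among the latter, Cd209a passed as lower (370, 137 and 129), while the median log2 difference of the 7 was 0.32. The sums were 22455, 20694 and 21403 for 8 neutrophil markers and 268, 340 and 265 for 4 erythroid markers, with Hba-a1 below the filter. In such sorted pools, fewer cells of a type and less RNA per cell cannot be told apart.

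Of the 25 probe sets, 23 passed the filter on low values, a mean of the 2 group means above 35.0 intensity units. The pair that did not pass were 1 of 6 probe sets of Pik3cd (1458321_at), which read 11.3 in WT and 11.3 and 10.9 in Rptor-null pools, and 1 of 6 of Pik3ca (1440054_at), which read 29.0, 22.4 and 29.5. Differences are given on the scale of log2(intensity + 16), which understates changes of dim probe sets. Of the 23, 10 were above WT in both Rptor-null arrays, 11 were below WT in both and 2 were split around it. Over all 27022 probe sets past the filter, 35.8% were above WT in both arrays and 43.9% below. The median log2 difference was -0.034 over the 23 probe sets and -0.029 over all. A difference of at least 1.5-fold in both arrays was reached by 1 probe set that was higher and 1 that was lower, beside 2.49% and 4.52% of all probe sets, and both read Pik3cd.

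**Figure D1:**
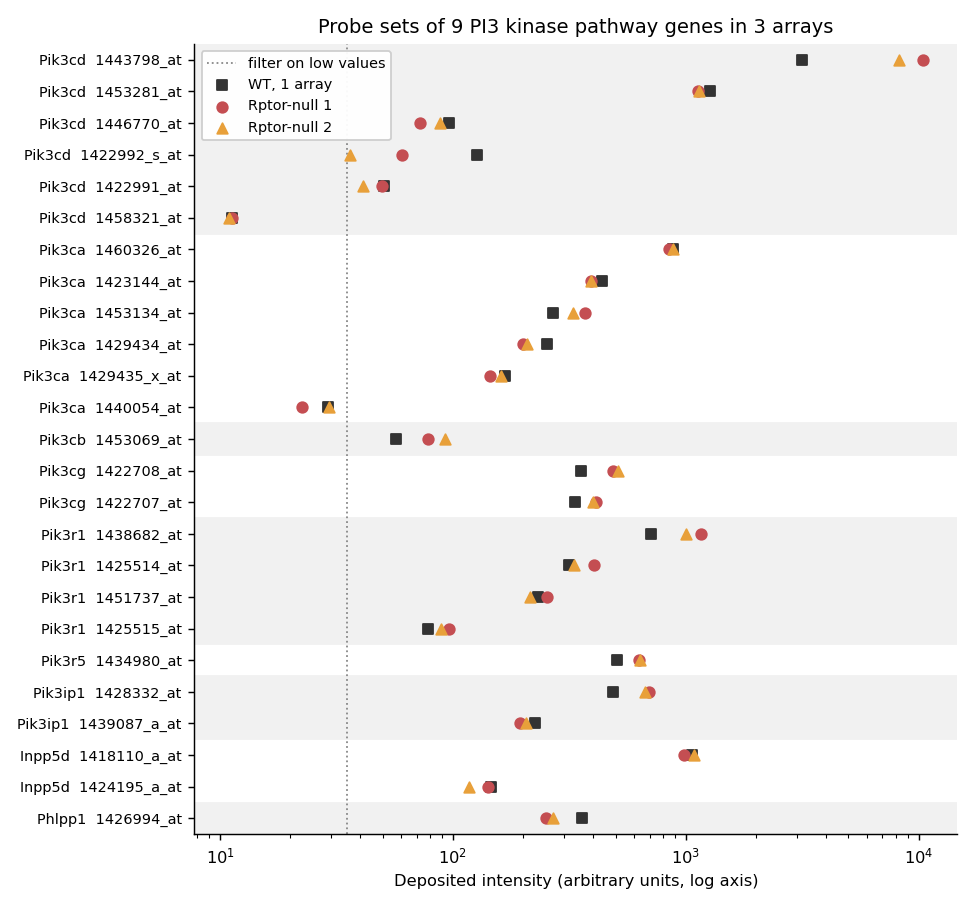
Deposited intensity (log axis, arbitrary units) of the 25 probe sets of the 9 genes in the WT array (square) and the 2 Rptor-null arrays (circle and triangle), grouped by gene, with the filter on low values as a dotted line. The Rptor-null values of Pik3cd 1443798_at, 10426 and 8216, stand far above its WT value of 3154, while its other probe sets lie at or below WT.

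Pik3cd encodes p110 delta, the catalytic subunit found mainly in leukocytes. On 1443798_at, its brightest probe set of 6, it read 3154 in WT and 10426 and 8216 in Rptor-null pools, a mean of 9321 ± 1563. Both Rptor-null arrays were above WT, with log2 differences of 1.72 and 1.38 and a mean fold of 2.93. The other probe sets of the gene did not follow.

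On 1453281_at Pik3cd read 1277 in WT and 1130 and 1136 in Rptor-null pools, a log2 difference of -0.17 ± 0.0057. On 1446770_at it read 96.3, 72.2 and 88.3, a difference of -0.23 ± 0.17. Both probe sets had the Rptor-null arrays a little below WT, and for the latter the gap to WT was about as large as the gap between the 2 pools. On 1422992_s_at it read 127 in WT and 60.7 and 36.2 in Rptor-null pools, 2.26-fold lower on average, with log2 differences of -0.90 and -1.45. On 1422991_at it read 50.7, 49.6 and 41.3, a difference of -0.12 ± 0.14, which did not exceed the spread between the Rptor-null pools. So 4 of the 5 probe sets past the filter were below WT in both arrays, and 1 was above. Of all probe sets past the filter, 43.9% were below WT in both arrays and 35.8% above.

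Highest minus lowest, the log2 differences of the 5 Pik3cd probe sets spanned 2.72. Among the 242 genes with 5 probe sets past the filter the median span was 0.64, and no other gene of that number had a wider one. The mean over the 5 was -0.029. Disagreement was present even between probe sets designed on 1 transcript record: 1422991_at and 1422992_s_at share theirs and were 1.05 apart, while the median over 2000 such pairs was 0.21 and 12 pairs were farther apart. The suffix of 1422992_s_at marks a probe set that can match several transcripts, and without that kind the span of Pik3cd was 1.78. The 3 genes nearest to 1443798_at in their 2 log2 differences, by Euclidean distance over 3 arrays, were Rpl27a (0.23), Ms4a2 (0.29) and Apobec1 (0.35). Ms4a2, which encodes a chain of the IgE receptor, is also 1 of the basophil markers. It was read on its brightest probe set, and its 2 probe sets past the filter ranged from 0.13 to 1.58. Whether the other cell types or the higher 3′ to 5′ ratios on the Rptor-null arrays had a part in the Pik3cd values was not tested.

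**Figure D2:**
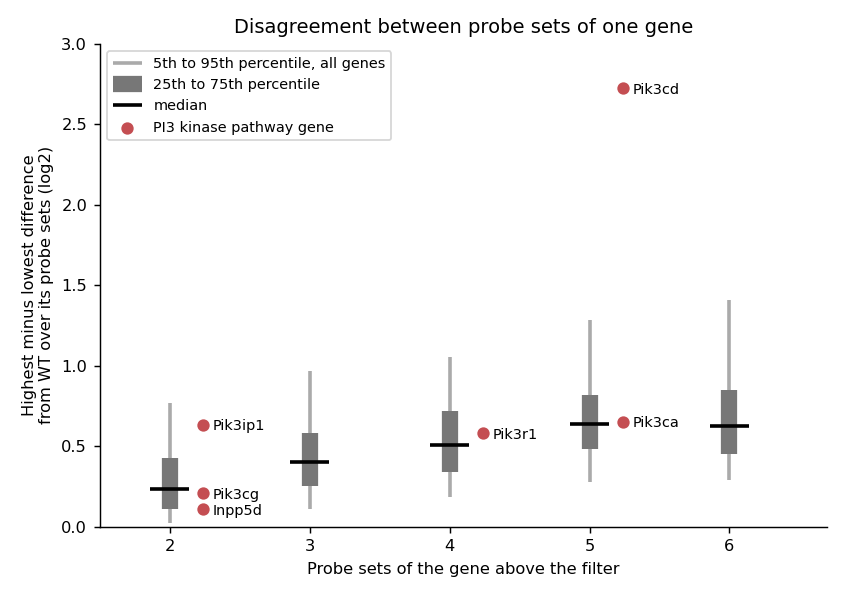
Span of the log2 differences from WT over the probe sets of 1 gene (vertical axis) by the number of its probe sets past the filter (horizontal axis). Bars give percentiles over all genes with that number and red points the 6 genes described here with more than 1 probe set. Pik3cd lies at 2.72, above the median of 0.64 for 5 probe sets, and Pik3ca at 0.65 lies near it.

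Pik3ca encodes p110 alpha, the widely expressed catalytic subunit known from growth factor and insulin signalling. Its 5 probe sets past the filter also did not all lie on one side, but the span of 0.65 was close to the median of 0.64. On 1460326_at it read 884 in WT and 848 and 879 in Rptor-null pools, a log2 difference of -0.034 ± 0.037 that turned to 0.085 after quantile normalization. On 1423144_at it read 439, 393 and 392, a difference of -0.15 ± 0.0030. Those probe sets come from 1 transcript record and both had Rptor-null arrays at or slightly below WT.

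The remaining 3 Pik3ca probe sets share another record. On 1429434_at the gene read 254 in WT and 201 and 208 in Rptor-null pools (-0.29 ± 0.034), and on 1429435_x_at it read 168, 145 and 160 (-0.13 ± 0.094). On 1453134_at it read 269, 371 and 328, a difference of 0.36 ± 0.12, so that both Rptor-null arrays were above WT there and below it on the other 2. The span within this record was 0.65, against a median of 0.41 over 293 records with 3 probe sets.

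Pik3cb encodes p110 beta, which can be driven by receptor tyrosine kinases and by G protein-coupled receptors. Its only probe set, 1453069_at, was dim, at 57.2 in WT and 78.4 and 92.2 in Rptor-null pools. Both Rptor-null arrays were above WT, by 0.37 and 0.56 on the log2 scale. Dim probe sets were on the whole slightly higher in Rptor-null arrays: with genes put in 5 bins by level, the median log2 difference was 0.078 in the dimmest bin (up to 70.5) and -0.0031 in the next (up to 165), and -0.14, -0.16 and -0.12 in the 3 brighter ones. The Pik3cb probe set, with a mean level of 71.3, stood at the border of the dimmest bins.

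Pik3cg encodes p110 gamma, the catalytic subunit used by chemokine and other G protein-coupled receptors in leukocytes. On 1422708_at it read 355 in WT and 487 and 512 in Rptor-null pools, a mean of 500 ± 17.7 and a log2 difference of 0.47 ± 0.050. On 1422707_at it read 334, 410 and 401, a difference of 0.27 ± 0.022. Both probe sets, designed on 1 record, had both Rptor-null arrays above WT, as did 35.8% of all probe sets past the filter. Their span of 0.21 was close to the median of 0.21 over pairs of 1 record. Pik3cg was thus the catalytic subunit with more than 1 probe set on which all of them lay on the same side. Of 5635 genes with 2 or more probe sets past the filter, 1964 had all of them above or all below WT in both arrays (34.9%). That share was not taken over genes with 2 probe sets alone, the number of Pik3cg.

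**Figure D3:**
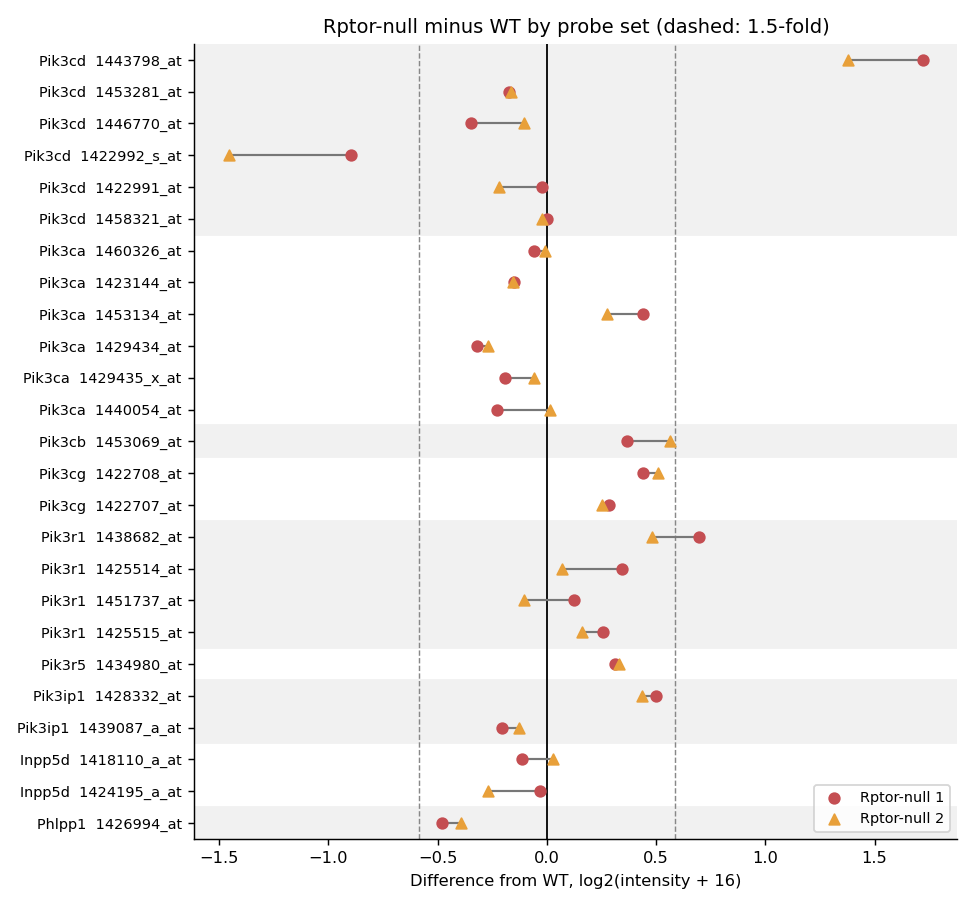
Log2 difference of each Rptor-null array from WT for the 25 probe sets (circle and triangle joined by a line), with 0 as a solid line and 1.5-fold as dashed lines. Pik3cd runs from -1.18 to 1.55 as the mean of the 2 arrays, while both probe sets of Pik3cg lie to the right of 0 and Phlpp1 lies to the left.

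Pik3r1 encodes p85 alpha and its shorter forms p55 alpha and p50 alpha, which stabilise and restrain the p110 subunits. On 1438682_at it read 710 in WT and 1162 and 998 in Rptor-null pools, a mean of 1080 ± 116 and a log2 difference of 0.59 ± 0.15. Its first Rptor-null array was over 1.5-fold above WT (0.70) and its second was not (0.48). The other 3 probe sets share 1 record and gave smaller values.

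On 1425514_at Pik3r1 read 315 in WT and 404 and 331 in Rptor-null pools (0.21 ± 0.19), and on 1425515_at it read 78.0, 96.5 and 88.9 (0.21 ± 0.071). On 1451737_at it read 231, 254 and 214 (0.0096 ± 0.16), with the Rptor-null arrays on both sides of WT. In 3 of 4 probe sets both Rptor-null arrays were therefore above WT, as in 35.8% of all probe sets past the filter. The mean difference exceeded the gap between the pools on 1438682_at and 1425515_at, but not on 1425514_at (0.34 and 0.069). The span of 0.58 compares with a median of 0.51 over 599 genes with 4 probe sets.

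Pik3r5 encodes p101, the regulatory partner through which p110 gamma answers G protein beta-gamma subunits. Its probe set 1434980_at read 505 in WT and 630 and 639 in Rptor-null pools, a mean of 635 ± 6.56. The pools nearly coincided and lay above WT, with a log2 difference of 0.32 ± 0.015. Transcripts of both p110 gamma and p101 thus read above WT in both arrays on all 3 of their probe sets. Of all probe sets past the filter, 35.8% did so. None of the 3 reached 1.5-fold in both arrays, and the 2 of Pik3cg share 1 record.

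The macrophage and monocyte markers, which also moved up on these arrays, are of cells known to express p110 gamma and p101, and their part in these values was not tested.

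Pik3ip1 encodes a transmembrane protein that binds p110 and inhibits PI3 kinase, and it is known to be high in resting T cells. On 1428332_at it read 490 in WT and 699 and 667 in Rptor-null pools, a mean of 683 ± 22.4 and a log2 difference of 0.47 ± 0.046. On 1439087_a_at it read 226, 194 and 205, a difference of -0.17 ± 0.053. The probe sets, from different records, put both Rptor-null arrays above WT on the first and below it on the second. Over all probe sets past the filter, 35.8% were above WT in both arrays and 43.9% below. Their span of 0.63 compares with a median of 0.23 over 3215 genes with 2 probe sets, of which 286 had a wider one. The 3 genes nearest to 1428332_at over the 3 arrays were Satb1 (distance 0.0097), Ovgp1 (0.013) and Leprot (0.014).

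Inpp5d encodes SHIP1, the phosphatase of blood cells that removes the 5-phosphate of PIP3. On 1418110_a_at it read 1059 in WT and 979 and 1081 in Rptor-null pools, with the Rptor-null arrays on both sides of WT and a log2 difference of -0.041 ± 0.099. On 1424195_a_at it read 145, 141 and 118, a difference of -0.15 ± 0.17. Neither difference exceeded the spread between the Rptor-null pools, and the first turned to 0.088 after quantile normalization.

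Phlpp1 encodes a phosphatase that removes the hydrophobic motif phosphate of AKT. Its probe set 1426994_at read 357 in WT and 252 and 268 in Rptor-null pools, a mean of 260 ± 11.7. Both pools were below WT, 1.35-fold on average, with a log2 difference of -0.44 ± 0.061. Of the 3 negative regulators, Phlpp1 was therefore below WT, Inpp5d differed by less than its spread, and Pik3ip1 had 1 probe set on each side.

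The rest of the pathway was read from 10 lists by role that hold none of the 9 genes, 134 genes in all. Of these, 124 could be named and 121 passed the filter, while the other 10 were not analysed here. Here a gene was read on its brightest probe set alone, and differences were tested with limma and Benjamini-Hochberg adjustment over 12721 genes. Of the 121 genes, 11 were higher, 11 lower and 99 did not pass (9.09% higher and 9.09% lower), beside 3.93% higher and 11.1% lower of all genes tested. The median log2 difference was -0.083 against -0.060 over all genes. In the lists 10 were higher and 5 lower after quantile normalization and 9 and 15 after median centring, with 525 and 700, and 470 and 1888, over all genes. Without a variance trend 3 and 7 passed in the lists. Of the 75 with several probe sets past the filter, 37 had mean differences of 1 sign throughout, and 2868 of 5635 did over all genes. The spread in this test comes from the pair of Rptor-null pools alone and WT is assumed to share it, so a deviation of that 1 array is not separated from the genotype.

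**Figure D4:**
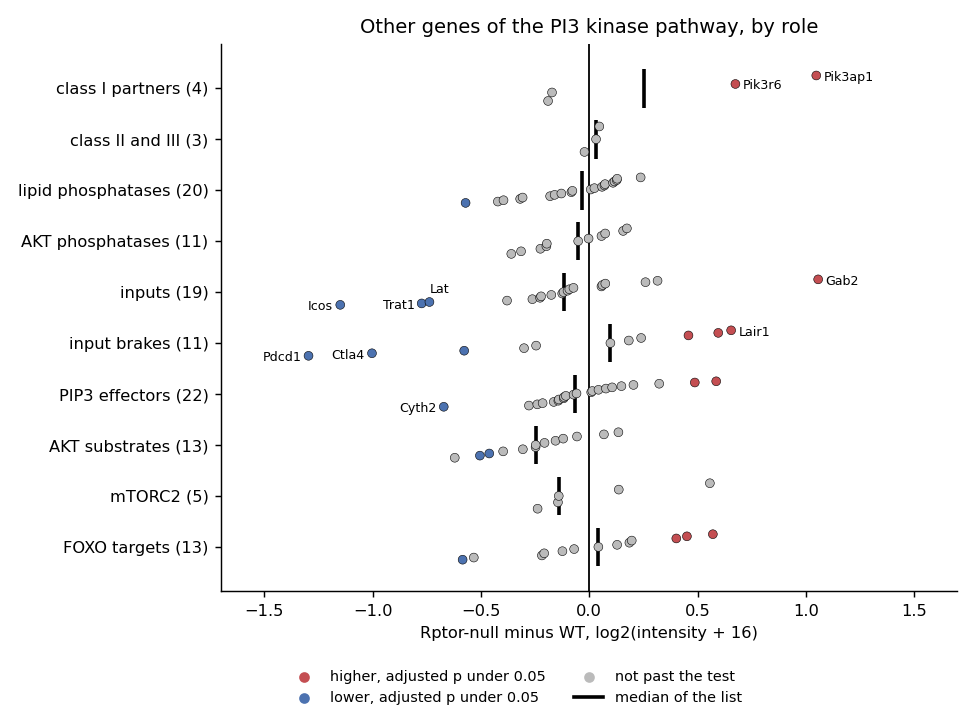
Log2 difference of Rptor-null from WT for the other pathway genes, 1 point per gene on its brightest probe set, in 10 lists by role with the number measured in parentheses. Red and blue mark genes past the limma test and black bars the list medians. Pik3ap1 and Gab2 lie at 1.05 and 1.06 and Pdcd1 and Icos at -1.30 and -1.15.

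Among 4 partners of class I kinases, 2 were higher and 0 lower. Pik3ap1, the adaptor BCAP that recruits p85 in B cells and myeloid cells, read 262 in WT and 527 and 593 in Rptor-null pools, 2.07-fold higher (adjusted p = 0.00502). Its other probe set past the filter differed by 0.0077. Pik3r6, which encodes p84, the alternative partner of p110 gamma, read 364, 531 and 658 and rose 1.60-fold (adjusted p = 0.0268), while its other probe set differed by -0.071 and the call was lost with the mean of both. The regulatory subunits Pik3r2 (162, 121 and 163) and Pik3r3, with log2 differences of -0.19 and -0.17, did not pass. With the p110 gamma complex, BCAP and p84 shared arrays on which macrophage markers summed to 35413, 50571 and 56212, and the part of those cells was not tested. None of 3 class II and III genes passed (Pik3c2a, Pik3c3 and Pik3r4, with log2 differences from -0.022 to 0.046).

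Opposing phosphatases were measured in 2 further lists. Among 20 lipid phosphatases 0 were higher and 1 lower, with a median of -0.036: Synj2, which removes phosphates from PIP2, read 196, 125 and 128 and fell 1.49-fold (adjusted p = 0.0478), with 4 probe sets that ranged from -0.57 to 0.091. Among 11 phosphatases that act on AKT, mostly subunits of protein phosphatase 2A, 0 were higher and 0 lower, with a median of -0.051.

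Among 19 inputs, which are receptors, adaptors and GTPases that recruit PI3 kinase, 1 was higher and 3 lower, with a median of -0.12. Icos, a costimulatory receptor that binds p85, fell 2.22-fold, from 4733 in WT to 2183 and 2067 (adjusted p = 0.00267). All 3 of its probe sets were below WT by mean log2 difference, from -1.53 to -0.62. Trat1, an adaptor of the T cell receptor that binds p85, fell 1.71-fold (1547, 813 and 992), and Lat, the scaffold of T cell receptor signalling, fell 1.67-fold (4165, 2554 and 2429). Gab2, a scaffold that binds p85, is known from mast cells and macrophages as well as T cells. It rose 2.08-fold, from 326 to 657 and 739 (adjusted p = 0.00462). The mean log2 differences of its 3 probe sets were all above 0 but ranged from 0.18 to 1.06. The drop of Icos, Trat1 and Lat stood beside lower T cell markers, 6 of 10 of which passed as lower. Lat is itself among those T cell markers and Icos among the Tfr markers, so these are not separate observations. The gain of Gab2 stood beside the higher macrophage and monocyte markers and the higher basophil and mast cell markers. Whether the mix of cell types had a part in the values of these inputs was not tested.

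Among 11 brakes on these inputs 3 were higher and 3 lower, with a median of 0.098. The inhibitory receptors Pdcd1 and Ctla4 fell 2.46-fold (654, 261 and 253) and 2.00-fold (4713, 2485 and 2209), each with adjusted p = 0.00402. Both are also among the Tfr markers summed above, so their drop is not a separate observation. Dok2, an adaptor that restrains T cell receptor signalling, fell 1.49-fold (851, 536 and 595). Lair1, an inhibitory collagen receptor of many leukocytes, rose 1.57-fold (304, 500 and 475, adjusted p = 0.0159). All 3 of its probe sets were above WT by mean log2 difference, from 0.31 to 0.66. The other 2 that rose, named after their values were seen, were Dok3, an adaptor that works with SHIP1 in B cells and macrophages (165, 236 and 280), and the ubiquitin ligase Itch (906, 1224 and 1279), whose 3 probe sets disagreed and ranged from -0.13 to 0.46.

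Of 22 effectors that bind PIP3 or belong to the AKT family, 2 were higher and 1 lower, with a median of -0.066. Sgk1, a kinase related to AKT and activated through mTORC2, rose by 0.59 on the log2 scale, from 1291 to 1852 and 2044 (adjusted p = 0.0122). Sgk3, which binds PI3P, rose 1.40-fold (406, 535 and 617, adjusted p = 0.04998), and Cyth2, an ARF exchange factor that binds PIP3, fell 1.59-fold (415, 267 and 242). Akt1 read 514, 482 and 447 (adjusted p = 0.497), with 4 probe sets that ranged from -0.54 to 0.25. None of 5 mTORC2 genes passed, and Rictor, its defining subunit, read 565, 587 and 659 (adjusted p = 0.521).

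Among 13 direct AKT substrates 0 were higher and 2 lower, with a median of -0.25, the lowest of the 10 lists. Tbc1d4, a regulator of glucose transporter traffic, fell 1.42-fold (726, 499 and 515, adjusted p = 0.0277). Cdkn1b, the cell cycle inhibitor p27, fell 1.38-fold (2031, 1423 and 1519, adjusted p = 0.0221). Foxo1, the FOXO factor that AKT excludes from the nucleus, read 1816, 1611 and 1645 and did not pass (adjusted p = 0.317).

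Of 13 genes known as FOXO targets 3 were higher and 1 lower, with a median of 0.042. Klf2, a transcription factor of T cell homing, rose 1.37-fold (3626, 4791 and 5139, adjusted p = 0.0167), and Txnip, which limits glucose uptake, rose 1.49-fold (2963, 4081 and 4761, adjusted p = 0.0157) with its other probe set at -0.11. Ets1, a lymphocyte transcription factor, rose 1.32-fold (4376, 5915 and 5660, adjusted p = 0.0204), but its 4 probe sets ranged from -0.41 to 0.40 and the call turned to -0.14 with their mean. Sesn3, a sestrin that restrains mTORC1, fell by 0.58 on the log2 scale (1719, 1067 and 1219, adjusted p = 0.0169), with both probe sets below WT. Without a variance trend all 4 of these calls were lost, as were those of Sgk1, Sgk3, Dok2, Pik3r6, Tbc1d4 and Cdkn1b. After quantile normalization those of Sesn3, Dok2, Tbc1d4, Cdkn1b, Synj2 and Cyth2 were lost, with adjusted p between 0.0542 and 0.0919. When probe sets were averaged per gene, those of Txnip, Cdkn1b, Synj2 and Sgk3 were lost, and without the filter those of Synj2 and Sgk3. The call of Sgk3 was also lost after median centring and with a pseudocount of 1. The FOXO targets therefore passed in both directions.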

How the data were processed

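RNA of 3 pools of sorted Tfr cells was read on single-colour Affymetrix arrays, 1 per pool, from biotin-labelled cRNA made from 100 ng total RNA, per the labels' protocols. The deposited values are probe-set intensities on a linear scale that the authors had scaled before deposit; the submitters' processing notes name MAS5 without a version, and the background correction, scaling target and summary method are not given in the sources used here. For arrays, the number of arrays limits the precision. The labels call the Rptor-null pools biological replicates.

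Groups were taken from sample titles. The platform annotation gave 34945 of 45101 probe sets 1 gene and 932 several, while 9160 are unnamed here and 64 are controls. Values were converted to log2(intensity + 16), and only probe sets above the 40th percentile of mean level were kept. Differences were fitted with limma 3.58.1 in R 4.3.3 (lmFit, eBayes with a mean-variance trend, 1 residual and 6.39 prior degrees of freedom, two-sided, Benjamini-Hochberg, threshold 0.05). Over 27022 probe sets this called 759 higher and 1651 lower, and over 12721 genes 500 higher and 1411 lower. The scripts were tested on simulated data. The 9 genes, the lists and the 11 alternatives were chosen with earlier results of these data known. Named genes were the 9 genes, Rptor, Akt1, Foxo1, Rictor and 1 other fixed gene that is not analysed here, up to 4 genes past the test per list ranked by the smaller of their 2 differences, the 3 nearest genes of 2 probe sets, and the brightest markers. Beyond that rule, Dok3, Itch, Pik3r2, Pik3r3 and the class II and III genes were named after their values were seen.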

Additional observations from a re-analysis of the deposited data

How the results depend on the processing

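Of 200 values of the 9 genes' probe sets recomputed under the alternatives, 195 kept their sign. Of the probe sets with both Rptor-null arrays on 1 side of WT, only Pik3ca 1460326_at turned, to 0.085 after quantile normalization. The probe sets at least 1.5-fold higher numbered 2 after quantile normalization, and 1 and 2 with 1 Rptor-null array left out, where Pik3r1 1438682_at was the second without replicate 2. Those at least 1.5-fold lower numbered 0 with the 60th percentile filter and without _s_at and _x_at probe sets, since Pik3cd 1422992_s_at is then left out, and 1 without either array. The span over Pik3cd was 2.97 with a pseudocount of 1, 2.31 with 64, 1.72 with the 60th percentile filter and 1.78 without _s_at and _x_at probe sets, and 2.62 and 2.83 with 1 Rptor-null array left out.

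Over all probe sets, 391 were 1.5-fold higher and 785 lower with a pseudocount of 64, and between 1093 and 1208 higher and between 1786 and 1900 lower with 1 Rptor-null array left out. For genes these were 383 to 505 higher and 905 to 1013 lower, and for the pathway lists 4 to 8 higher and 7 to 10 lower. The limma counts over probe sets were 454 higher and 969 lower without the filter, 913 lower after quantile normalization, and 1 and 1 without the variance trend. Over genes they were 700 lower after quantile normalization, and 301 and 769 without the trend. In the pathway lists 5 were lower after quantile normalization, 3 higher and 7 lower without the trend, and 6 higher with the mean of probe sets. At least 1.5-fold higher were 5 pathway genes after quantile normalization and 0 with the mean of probe sets. Their median was 0.026 after quantile normalization, which turned it, -0.13 after median centring, and -0.089 and -0.065 with 1 Rptor-null array left out. Quantile normalization moved the median of all genes from -0.060 to -0.0077. Of 20 named pathway genes past the test, 8 kept their call in every fitted alternative and 12 lost it in at least 1. Ets1 turned to -0.14 when probe sets were averaged and to -0.17 without _s_at and _x_at probe sets, where Pik3r6 turned to -0.071. The causes were not tested. With 1 Rptor-null array left out no residual degree of freedom remains, so those are values with no test. No paired analysis was possible because WT is a single pool with no replicate number.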
